A study of Mus musculus with 4 samples.

Results

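The 10 genes described here mark blood stem cells and multipotent progenitors, and they were taken by symbol from a table of 16673 genes. They are Procr, Cd34, Slamf1, Ly6a, Esam, Robo4, Fgd5, Ctnnal1, Angpt1 and Gcnt2, and cytokine receptors were left out of the choice. All 10 were in the table and all 10 passed the filter on low values. RNA came from lineage-negative (Lin–) bone marrow cells, which remain after cells with markers of mature blood lineages are removed, of mice aged 2 months. The 2 mice labelled control carried Tet3F/F, both copies of Tet3 flanked by loxP sites, without Cre. The 2 mice labelled cKO carried the same Tet3F/F alleles and Tie2+/cre, a Cre recombinase driven by Tie2 (Tek), a gene of endothelial and early blood cells. The product of Tet3 is an enzyme that converts 5-methylcytosine of DNA to its oxidised forms. The groups were compared to find transcripts that change with the Tet3 genotype. Cre was present in the cKO group only, so an effect of Cre itself and an effect of losing Tet3 cannot be told apart. The libraries are called control 1, control 2, cKO 1 and cKO 2 below, by their replicate numbers.

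Blood stem cells are rare cells of the marrow that renew themselves and give rise to all blood lineages, and multipotent progenitors are their first descendants. Both are found by combinations of surface proteins, since no protein alone is found on stem cells and nowhere else. Several of these proteins are also made by endothelial cells, which line blood vessels and share an embryonic origin with blood stem cells. Procr, Cd34, Slamf1, Ly6a, Esam and Robo4 encode proteins of the cell surface. Fgd5 and Ctnnal1 encode proteins inside the cell whose reporter alleles mark stem cells, Angpt1 encodes a secreted ligand and Gcnt2 an enzyme of the Golgi, so the last 4 are marker genes without being surface proteins themselves.

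The reads counted to genes numbered 28845037 to 46673855 per library. Control 2 stood apart, with 8.16% of its reads on the mitochondrially encoded protein genes, against 0.989% to 1.26% in the other libraries. Tet3 itself had 5056 and 6593 normalized counts in the control libraries and 6400 and 5084 in the cKO libraries, and a count over the whole gene does not show whether the floxed exons were lost. Xist, the RNA of the inactive X chromosome, had 5.54 and 9.57 normalized counts in the control libraries and 87442 and 48951 in the cKO libraries, so genotype and sex cannot be told apart. Kit, the receptor of early progenitors, had 10915 to 14051 normalized counts, and the pan-blood gene Ptprc had 9528 to 12832. Without a library of unseparated marrow, these levels cannot show how fully mature cells were removed. Genes of mature lineages were present, with 67.4 to 460 normalized counts for the T cell gene Cd3e and 692 to 1706 for the myeloid gene Itgam.

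The promoters of the marker genes differ widely in CpG, the dinucleotide at which most 5-methylcytosine lies. RefSeq (build GRCm38.p6) gave promoters for 7 of the 10 genes, and those of Ly6a, Esam and Angpt1 are not analysed here. The 250 bases before the start are shown for 3 genes that span the range, with each CpG in capitals. The build of the reads was mm39, so these positions are RefSeq's own and were not joined to the counts.
Fgd5, chr6:91978715-91978964 (plus strand): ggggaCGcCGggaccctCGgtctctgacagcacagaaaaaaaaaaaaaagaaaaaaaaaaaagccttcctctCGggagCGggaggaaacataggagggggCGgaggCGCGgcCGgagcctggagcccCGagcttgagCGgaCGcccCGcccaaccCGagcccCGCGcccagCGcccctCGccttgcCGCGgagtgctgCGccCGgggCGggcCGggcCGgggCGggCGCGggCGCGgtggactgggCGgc
Cd34, chr1:194938571-194938820 (plus strand): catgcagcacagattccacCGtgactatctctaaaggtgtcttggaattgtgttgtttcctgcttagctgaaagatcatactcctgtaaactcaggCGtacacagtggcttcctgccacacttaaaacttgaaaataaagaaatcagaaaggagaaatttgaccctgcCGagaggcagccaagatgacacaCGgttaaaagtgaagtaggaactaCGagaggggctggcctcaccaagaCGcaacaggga
Robo4, chr9:37401722-37401971 (plus strand): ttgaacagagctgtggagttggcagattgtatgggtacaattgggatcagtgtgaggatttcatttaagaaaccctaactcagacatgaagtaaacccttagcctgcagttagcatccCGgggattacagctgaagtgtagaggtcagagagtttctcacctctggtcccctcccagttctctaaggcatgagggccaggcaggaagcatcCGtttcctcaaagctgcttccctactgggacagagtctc

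The Fgd5 promoter held 31 CpG dinucleotides, more than 94.8% of the 32851 promoters of this length, whose median was 6. Cd34 held 6, and Robo4 held 2, more than 18.8% of promoters. Among the others Ctnnal1 held 18, Procr 13 and Slamf1 3. Gcnt2 has 3 annotated starts, whose promoters held 5, 6 and 11, and the gene-level counts sum over all of them. The ETS motif GGAAG, searched on both strands, was in 6 of the 9 promoters (64.1% of all promoters hold it), the GATA motif GATAA in 1, that of Slamf1 (22.6%), the RUNX motif TGTGGT in 0 (14.0%) and the E-box CANNTG in 5 (66.2%). No match overlapped a match of another motif in these 9 promoters. A match is a description of the letters and no sign of binding, and methylation was not analysed here.

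None of the 10 marker genes passed the test between the groups. Of 16598 genes tested with limma and Benjamini-Hochberg adjustment, 12 passed (0.0723%, a share that was 0.0728% with edgeR and 0.686% with DESeq2), 5 higher and 7 lower in the cKO libraries, or 2 and 6 after quantile normalization. Xist was among those called higher by limma, and the Y-linked gene Ddx3y among those called lower. Ddx3y had 3158 and 3672 normalized counts in control 1 and 2 and 0 and 0 in cKO 1 and 2. The calls thus include genes that differ by sex. The count for the marker genes was 0 with limma, with edgeR and with DESeq2. At an unadjusted p under 0.05 it was 2, Fgd5 and Ly6a, with each of the 3 tools, beside 6.1%, 6.21% and 7.21% of all genes in the limma, edgeR and DESeq2 fits. The log2 fold change, cKO minus control on the scale of log2(normalized count + 1), was above 0 for 6 genes, from 0.24 to 1.05. Of all genes tested, 50.8% were above 0. The value lay within 0.02 of 0 for the remaining 4, Procr, Robo4, Ctnnal1 and Gcnt2, which were below 0 here and above 0 with another scaling (TMM). The median was 0.26 over the 10 genes and 0.01 over all genes tested.

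**Figure D1:**
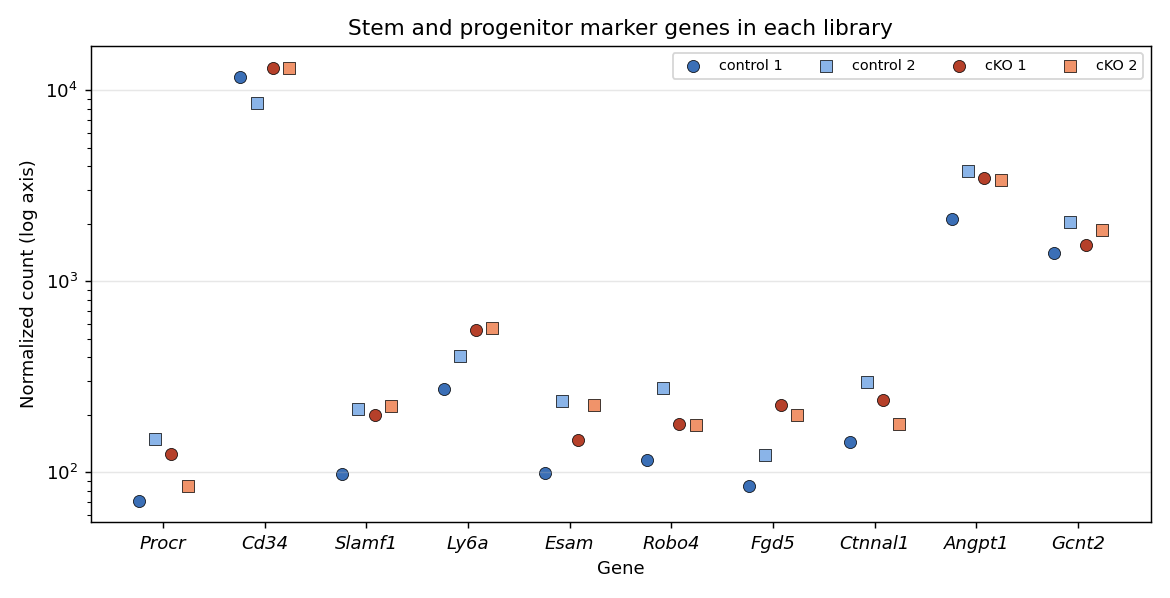
Normalized counts of the 10 marker genes in each of the 4 libraries, on a log axis. Circles are replicate 1 and squares replicate 2, blue for control and red for cKO. Control 1 is the lowest point for 9 of the 10 genes, and for Cd34 control 2 is.

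The marker genes were lowest in control 1. That library had the lowest of the 4 values for 9 of the 10 genes, Cd34 being the exception, while it was lowest for 22.3% of all genes tested. Control 2 had the highest value for 6 of them, against 34% of all genes. On the log2(normalized count + 1) scale, control 2 exceeded control 1 by a median of 0.93 over the 10 genes and 0.01 over all genes, and it was the higher of the control libraries for 9 genes (50.8% of all genes). The cKO libraries differed from each other by a median of -0.01 over the 10 genes (cKO 2 minus cKO 1). In 8 of the 10 genes the gap between the control mice was larger than the gap between the group means, as it was in 63.3% of all genes. When each gene was centred on its own mean, the average of the 10 genes was -0.55 in control 1, 0.23 in control 2, 0.17 in cKO 1 and 0.15 in cKO 2. Control 2 and both cKO libraries were thus close to each other in this average, and control 1 lay below all 3. Over all genes it was control 2 that stood apart, with its high mitochondrial share and a Pearson r (log2, over 16673 genes) of 0.931 and 0.933 with cKO 1 and 2, against 0.963 and 0.970 for control 1.

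**Figure D2:**
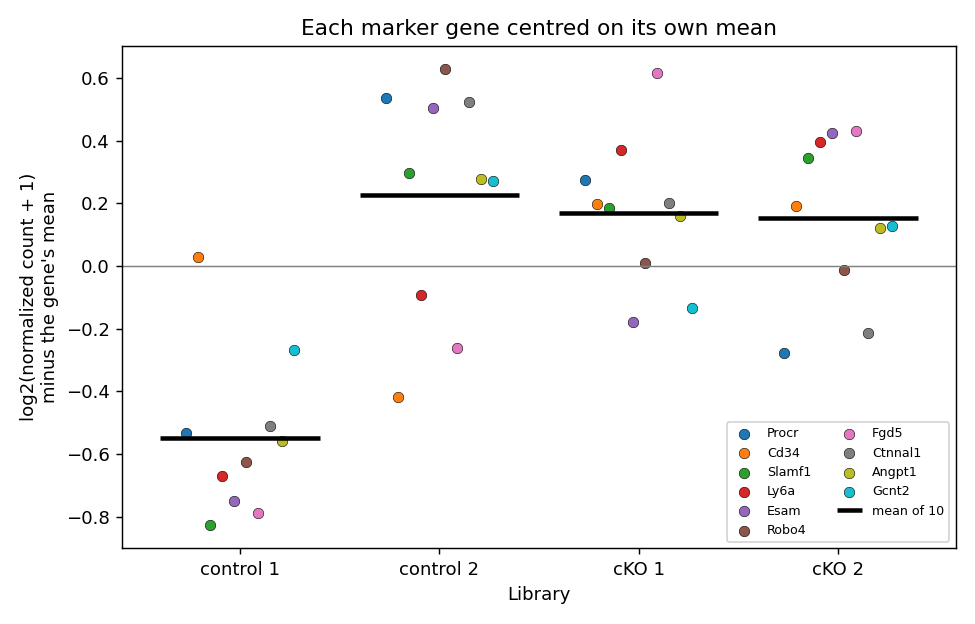
Each gene's log2(normalized count + 1) minus its own mean over the 4 libraries, with a black bar for the mean of the 10 genes. The bar is at -0.55 in control 1 and between 0.15 and 0.23 in the other 3 libraries. Cd34 is the one gene above 0 in control 1.

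The group difference therefore turned on which control library was used. Without control 2, all 10 genes lay above 0 and their median was 0.66, while 48.2% of all genes were above 0. Without control 1, 3 genes were, Fgd5, Ly6a and Cd34, and the median was -0.20, against 50.5% of all genes above 0. Without cKO 1 or cKO 2 in turn, 7 and 8 genes were above 0 and the medians were 0.32 and 0.29. In each of these fits the group with a library left out was represented by 1 mouse, which is assumed to vary like the others, and 0 of the 10 genes passed the limma test. In total 7 genes changed sign when at least 1 library was left out, and Fgd5, Ly6a and Cd34 did not. In these 3 genes both cKO libraries were above both control libraries, so leaving out a library could not change the sign.

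**Figure D3:**
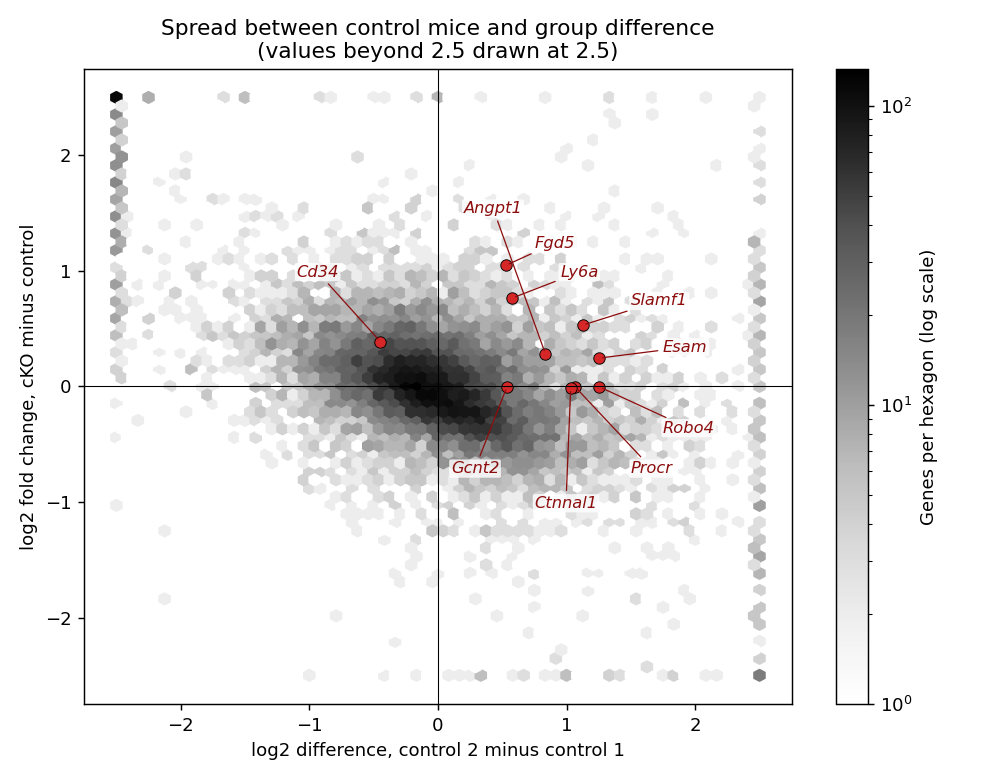
The log2 difference between the control mice (control 2 minus control 1) against the log2 fold change between the groups, for all genes tested (grey hexagons, darker for more genes) and the 10 marker genes (red). The marker genes lie to the right of 0 except Cd34, and both axes use the control libraries. Values beyond 2.5 are drawn at 2.5.

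Fgd5, Ly6a and Cd34 were the 3 genes whose groups did not overlap, with both cKO libraries above both control libraries, an order found for 19.2% of all genes tested. The opposite order was found for 0 of the 10 genes and 19.5% of all genes. Fgd5, which encodes an exchange factor that activates the small GTPase Cdc42, had 84.9 and 123 normalized counts in control 1 and 2 and 226 and 199 in cKO 1 and 2. Its mean was 2.05-fold higher in the cKO libraries, and the fitted log2 fold change was 1.05 (SE 0.39, 95% interval 0.15 to 1.95; limma with Benjamini-Hochberg adjusted p = 0.76). The smallest value with a library left out was 0.78, without control 1, and the largest was 1.31, without control 2. No other of the 10 genes had as large a fold change.

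Ly6a encodes Sca-1, a small protein held on the membrane by a lipid anchor and used to isolate mouse stem and progenitor cells. It had 271 and 405 normalized counts in control 1 and 2 and 559 and 569 in cKO 1 and 2. The cKO libraries were nearly equal, and the control libraries were both below them and further apart from each other. The log2 fold change was 0.76 (SE 0.29, 95% interval 0.08 to 1.45; limma with Benjamini-Hochberg adjusted p = 0.76), and values with a library left out were between 0.48 and 1.05. Ly6a belongs to a cluster of related genes, and the handling of reads that match several of them was not stated in the sources used here. T cells also make Sca-1, and all 11 T cell markers listed here had positive log2 fold changes, beside 50.8% of all genes tested. These markers summed to 2114 and 3136 normalized counts in the control libraries and 6177 and 4228 in the cKO libraries. None of the 11 was at 0 reads in any library, and their part in the Ly6a values was not tested.

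Cd34 encodes a sialomucin of progenitors and of vessel lining, and in adult mice the long-lived stem cells carry little of it. It had 11733 and 8599 normalized counts in control 1 and 2 and 13170.3 and 13116 in cKO 1 and 2. The cKO libraries were within a narrow range, and control 2, not control 1, was the lowest. The log2 fold change was 0.39 (SE 0.22, 95% interval -0.12 to 0.89; limma with Benjamini-Hochberg adjusted p = 0.76), and values with a library left out were between 0.16 (without control 2) and 0.61 (without control 1).

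Slamf1 (CD150), a receptor of the SLAM family that binds itself on neighbouring cells, had 97.9 normalized counts in control 1, 215 in control 2, 198 in cKO 1 and 222 in cKO 2. Control 1 was low, and control 2 lay between the cKO libraries. The log2 fold change was 0.53 (SE 0.45, 95% interval -0.52 to 1.58), 1.09 without control 2 and -0.03 without control 1. Procr (EPCR), the receptor that presents protein C for activation, had 71.1 and 149.9 normalized counts in control 1 and 2 and 125 and 85.0 in cKO 1 and 2. Both cKO values lay between the control values, so the groups overlapped fully. The log2 fold change was -0.0035, with a 95% interval of -1.20 to 1.19, an interval that includes a doubling in either direction.

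Esam and Robo4, adhesion and guidance receptors shared with endothelial cells, were both lowest in control 1 and highest in control 2. Esam, an immunoglobulin-domain protein of cell junctions, had 98.8 and 237 normalized counts in control 1 and 2 and 147 and 224 in cKO 1 and 2. Robo4, a roundabout receptor that helps stem cells lodge in the marrow, had 115 and 277 normalized counts in control 1 and 2 and 179.8 and 177 in cKO 1 and 2. For both genes the control mice differed 2.40-fold, and both cKO values lay between them. The log2 fold changes were 0.24 (SE 0.50, 95% interval -0.92 to 1.41) for Esam and -0.0038 (SE 0.47, 95% interval -1.09 to 1.09) for Robo4. These genes are close neighbours on mouse chromosome 9, with 2 protein-coding genes between them in RefSeq order, Robo3 and Msantd2. Robo3 had 168 and 565 normalized counts in control 1 and 2 and 174 and 238 in cKO 1 and 2, and Msantd2 had 654 and 1097 in control 1 and 2 and 808 and 739.9 in cKO 1 and 2. All 4 genes of the stretch were thus highest in control 2 and lowest in control 1. The strand setting of the counting was not stated in the sources used here, so reads of overlapping neighbours may not be separated.

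Ctnnal1 encodes alpha-catulin, a relative of alpha-catenin. It had 145 and 298 normalized counts in control 1 and 2 and 238 and 178 in cKO 1 and 2, with both cKO values inside the control range. The log2 fold change was -0.01 (SE 0.43, 95% interval -1.02 to 0.99). Angpt1 encodes angiopoietin-1, the ligand that activates the receptor Tie2. It had 2113 and 3773 normalized counts in control 1 and 2 and 3474 and 3386 in cKO 1 and 2, and the cKO libraries lay near each other and below control 2. Its log2 fold change was 0.28 (SE 0.28, 95% interval -0.37 to 0.93), 0.70 without control 2 and -0.14 without control 1. Gcnt2 encodes the enzyme that branches poly-lactosamine sugar chains and so makes the I blood group antigen. It had 1409 and 2044 normalized counts in control 1 and 2 and 1547 and 1854 in cKO 1 and 2. Its log2 fold change was -0.0030 (SE 0.24, 95% interval -0.57 to 0.56), the narrowest interval among the 4 genes near 0.

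**Figure D4:**
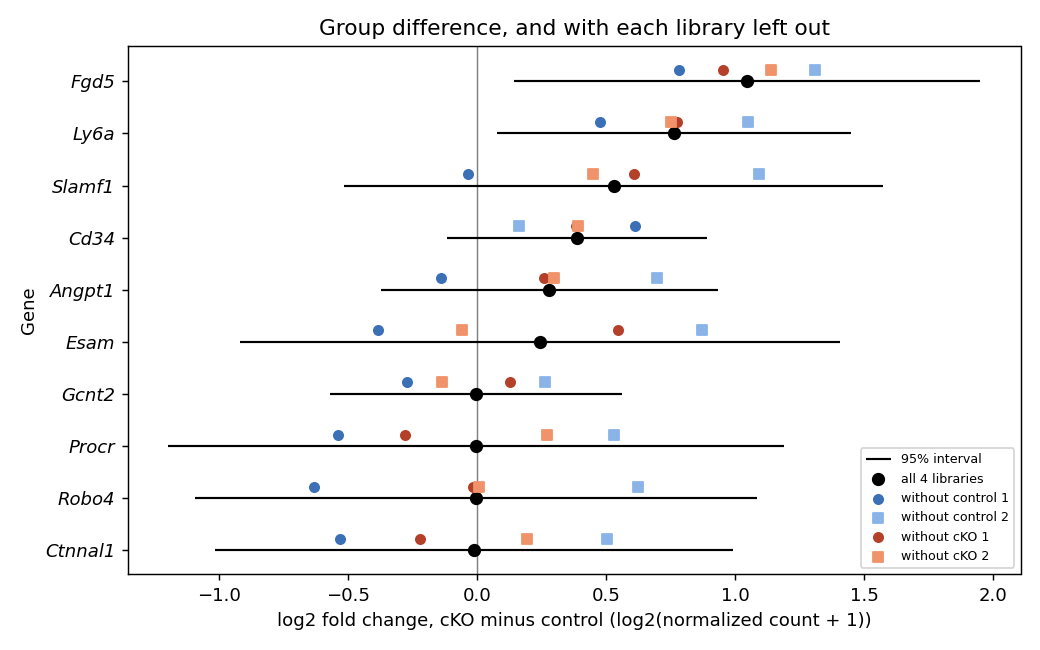
Log2 fold change of each gene, cKO minus control, with its 95% interval (black), and the value with each library left out (coloured, drawn just above). Fgd5, Ly6a and Cd34 keep all 5 values above 0, as they must where both cKO libraries are above both control libraries. The value without control 2 lies to the right of the value without control 1 for every gene but Cd34.

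Levels were compared between genes per 1000 exon bases, with exon lengths from GENCODE M21 by symbol. Cd34 was the most abundant, at 1180 to 1807 normalized counts per 1000 bases over the 4 libraries, and its range did not overlap that of Angpt1, at 406 to 725. Ly6a (225 to 472) and Gcnt2 (199.8 to 289.9) came next. The ranges of Angpt1 and Ly6a overlapped, as did those of Ly6a and Gcnt2, but within each of the 4 libraries the order of these genes was the same. The other 6 genes were all below Gcnt2, from Esam (34.5 to 82.6) and Procr (35.0 to 73.8) through Robo4 (21.8 to 52.2), Slamf1 (15.9 to 36.0) and Ctnnal1 (18.9 to 38.8) to Fgd5 (13.5 to 36.0). Each of these 6 overlapped its neighbour in the order. The annotation the authors counted on was not stated in the sources used here, and another one would change these lengths.

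The partners of the marker proteins, their gene relatives and other stem cell genes were set beside them, 74 different genes in 5 lists. None passed with limma or edgeR. With limma 8 of the 74 had an unadjusted p under 0.05, beside 6.1% of all genes. DESeq2 called 1, Thy1, beside 0.686% of all genes. Of 13 genes listed as partners, 9 were higher on average in the cKO libraries without passing, and the median log2 fold change was 0.17. Over all genes tested, 50.8% were above 0. The list is broader than binding partners, as it holds Podxl, a relative of Cd34. Tek, the receptor of Angpt1 and the gene whose promoter drives Cre, had 127 and 268 normalized counts in control 1 and 2 and 382 and 318 in cKO 1 and 2. Sh2d1a, which encodes the adaptor SAP of SLAM receptors, had 12.9 and 23.9 in control 1 and 2 and 85.2 and 88.5 in cKO 1 and 2. Podxl, a sialomucin related to Cd34, had 48.0 and 185 in control 1 and 2 and 245 and 237 in cKO 1 and 2. In all 3 genes both cKO libraries were above both control libraries and control 1 was the lowest. They were named for the smallest limma p of their list, a choice that favours such an order. Of the 13 genes listed, 5 had this order and 1 the opposite order, beside 19.2% and 19.5% of all genes tested.

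Of 25 genes listed as relatives of the marker genes, 20 had positive log2 fold changes, beside 50.8% of all genes tested. The list is broader than gene families, as it holds Ctnnb1, a catenin of another family than Ctnnal1. The median log2 fold change of the 25 was 0.19. The median was 0.36 without control 1 and 0.10 without control 2. Unlike the 10 marker genes, 14 of the 25 were lowest in control 2 and 6 in control 1. Slamf7, a SLAM receptor, had 131 and 146 normalized counts in control 1 and 2 and 370.1 and 287 in cKO 1 and 2. Fgd4, a relative of Fgd5, had 1460 and 877 in control 1 and 2 and 2128 and 2091 in cKO 1 and 2 (log2 fold change 0.90), with control 2 the lowest, and did not pass. It passed limma with Benjamini-Hochberg adjustment without control 1 (log2 fold change 1.27, adjusted p = 0.025), a fit that called 231 genes higher and 161 lower, but not without control 2 (0.53, adjusted p = 0.51) and not without cKO 1 or cKO 2 (adjusted p = 0.9998 and 0.97). Ly6c1, of the same cluster as Ly6a, had 71.1 and 54.2 in control 1 and 2 and 119 and 140.2 in cKO 1 and 2. Ly6d, another gene of the Ly6 family, had the opposite order. It had 848 and 994 in control 1 and 2 and 718 and 518 in cKO 1 and 2 (log2 fold change -0.59). Slamf7, Fgd4, Ly6c1 and Ly6d were named for the smallest limma p of their list, a choice that favours groups that do not overlap. Of the 25 genes, 9 had both cKO libraries above both control libraries and 2 the opposite order. The shares of all genes tested were 19.2% and 19.5%.

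Among 18 other stem cell surface markers, 11 were above 0 and 7 below, with a median of 0.10. The median was -0.12 without control 1 and 0.26 without control 2, and 10 of the 18 were lowest in control 1. Thy1, an anchored surface protein also made by T cells, had 529 and 778 normalized counts in control 1 and 2 and 1795 and 1233 in cKO 1 and 2 (DESeq2 with Benjamini-Hochberg, adjusted p = 0.034; limma with Benjamini-Hochberg, adjusted p = 0.66). Itga6, an integrin chain, had 2784 and 2375 in control 1 and 2 and 3556 and 3397 in cKO 1 and 2. Ifitm3, an interferon-induced membrane protein gene, had lower values in the cKO libraries. It had 6604 and 5760.2 in control 1 and 2 and 3962 and 4714 in cKO 1 and 2. Thy1, Itga6 and Ifitm3 were also named by smallest limma p. Of the 18 genes, 6 had both cKO libraries above both control libraries and 2 the opposite order, beside 19.2% and 19.5% of all genes tested. All 6 multipotent progenitor markers were above 0, beside 50.8% of all genes tested, and their median was 0.19. It was 0.39 without control 1 and 0.10 without control 2. Among the 6 were the cytokine receptor gene Flt3 (log2 fold change 0.45) and the lymphoid polymerase gene Dntt (0.50). Control 2 exceeded control 1 in 2 of these 6 genes, against 9 of the 10 marker genes. The 16 other stem cell signature transcripts were split, 8 above 0 and 8 below, with a median of 0.0022. Like the 10 marker genes they were often lowest in control 1, in 10 of 16, and their median was 0.48 without control 2 and -0.32 without control 1.

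Because the marrow fraction is a mixture, fewer cells of a type and less RNA per cell cannot be told apart, and markers of the other cell types that make these proteins were summed in each library. Of 14 endothelial markers 13 were measured, none at 0 reads, and Sox17 was not analysed here. Their sum was 7915 and 8602 normalized counts in control 1 and 2 and 9762 and 9109 in cKO 1 and 2. Control 1 was the lowest in the sum and in 4 of the 13 genes, beside 22.3% of all genes tested. Pecam1, an adhesion molecule and a large part of this sum, had 4222 and 2922 in control 1 and 2 and 5192 and 4228 in cKO 1 and 2, lowest in control 2. Of 11 megakaryocyte markers 9 were measured, none at 0 reads. They summed to 6712 and 12096 in control 1 and 2 and 9089 and 8590 in cKO 1 and 2. The sum was lowest in control 1 and highest in control 2, and 6 of the 9 genes were lowest in control 1. Erythroid markers (10 of 10, none at 0 reads) summed to 31856 and 90384 in control 1 and 2 and 43054 and 15242 in cKO 1 and 2. Myeloid markers (9 of 10, none at 0 reads) summed to 607075 and 194855 in control 1 and 2 and 384941 and 480567 in cKO 1 and 2. Control 1, where 9 of the 10 marker genes were lowest, had the highest value of all 9 myeloid markers. The share of all genes that were highest in control 1 was not counted. The lowest value was in control 2 for 5 of them and in cKO 1 for 4.

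Mast cell and basophil markers (6 of 8, none at 0 reads) summed to 28546 and 10443 normalized counts in control 1 and 2 and 31051 and 16874 in cKO 1 and 2. Stromal and bone markers (12 of 12, none at 0 reads) summed to 22477 and 21895 in control 1 and 2 and 6902 and 10591 in cKO 1 and 2, and B cell markers (7 of 8, Igll1 at 0 reads in control 2) to 1109 and 928 in control 1 and 2 and 1387 and 1079.9 in cKO 1 and 2. Limma and edgeR called 0 markers of these 8 cell type lists. Unadjusted limma p-values were under 0.05 for 7 of 11 T cell, 5 of 12 stromal and 2 of 9 megakaryocyte markers. They were also under 0.05 for 1 of 13 endothelial and 1 of 10 erythroid markers, beside 6.1% of all genes. DESeq2 called 3 T cell markers and the megakaryocyte gene Selp higher and 4 stromal markers lower, beside 0.686% of all genes called. The part of these cell types in the marker genes' values was not tested.

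**Figure D5:**
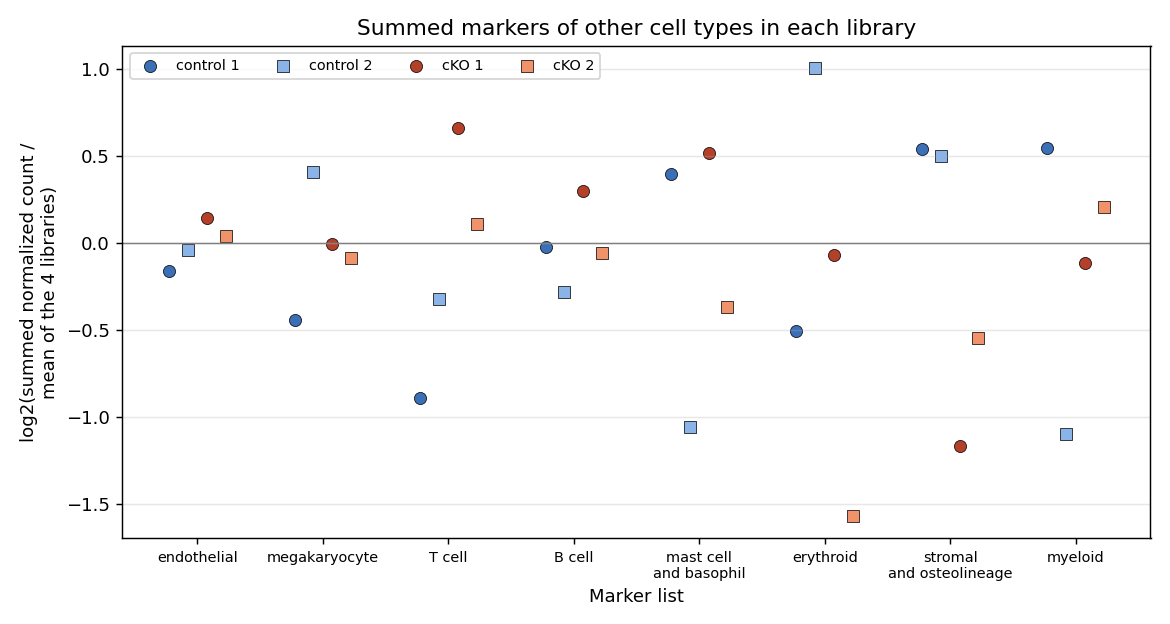
Summed normalized counts of 8 marker lists in each library, as the log2 ratio to the list's mean over the 4 libraries. The sum of myeloid markers is highest in control 1 and lowest in control 2, those of erythroid and megakaryocyte markers are highest in control 2, and that of T cell markers is higher in both cKO libraries than in both control libraries.

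The genes most like the marker genes in pattern were found by Pearson correlation with their average profile over the 4 libraries, among 12872 other genes with a mean of at least 50. Among the closest were C030015A19Rik, Trim12c, Lpar6 and Eda, all with r above 0.99. Lpar6, a receptor for lysophosphatidic acid, had 1291 and 1480.3 normalized counts in control 1 and 2 and 1459 and 1457 in cKO 1 and 2. Eda, a ligand of the tumour necrosis factor family, had 26.8 and 112 in control 1 and 2 and 103 and 94.2 in cKO 1 and 2. Each was low in control 1 and closer to level in the other libraries. With 4 points a high r is common, and 230 genes exceeded 0.95.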

How the data were processed

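RNA was sequenced from Lin– marrow cells of 4 mice, 1 library per mouse. The authors deposited a normalized signal for each gene, that is reads scaled by a factor for every library, per the file headers. Build mm39 and the tools DESeq2, featureCounts, SAMtools, STAR 2.7.9a and Trim Galore 0.6.7 are named in the submitters' processing notes, and settings, annotation and strand were not stated in the sources used here. Columns headed wild type were matched by number to the samples labelled control. Every value (100%, within 0.1 read) was a whole number of reads times 1 step, which gave back the reads.

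Log2(normalized count + 1) was fitted with limma 3.58.1 in R 4.3.3 (variance trend, two-sided, Benjamini-Hochberg, threshold 0.05), using the 16598 genes whose mean reached 10. With 2 mice against 2 an exact permutation p is at least 0.33. Libraries of a group differed beyond sampling noise (chi-square over degrees of freedom of 293 in control, 37.7 in cKO). Alternatives were edgeR 4.0.16 and DESeq2 1.42.0 on the reads, other pseudocounts, filters and scalings, a replicate block and each library left out. The steps were tested on simulated data in which no library stood apart, unlike control 2 here. That is a check of the code and not of the tests on these data. The 10 genes and all lists were chosen with earlier results of these data known. Named besides the 10 were Tet3, Xist, up to 4 genes per list by smallest p and the 5 genes most alike in pattern. Some genes this rule takes are not reported here. Cd3e, Itgam, Kit, Ptprc, Pecam1, Robo3, Msantd2, Vsig2 and Ddx3y were named after their values were seen.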

Additional observations from a re-analysis of the deposited data

How the results depend on the processing

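The marker genes stayed uncalled under every alternative run. Over the 11 alternatives that keep all 4 libraries, 105 of 110 log2 fold changes of the 10 genes kept their sign. The exceptions were values near 0, with TMM Procr 0.012, Robo4 0.011, Ctnnal1 0.0027 and Gcnt2 0.012, so that 10 genes were above 0, and Gcnt2 at 0.026 after quantile normalization, where Tet3 had 0.020. With each library left out, the number above 0 ran from 3 to 10 and the median from -0.20 to 0.66. Single genes ran from -0.54 to 0.53 (Procr), -0.032 to 1.09 (Slamf1), -0.38 to 0.87 (Esam), -0.63 to 0.62 (Robo4), -0.53 to 0.50 (Ctnnal1), -0.14 to 0.70 (Angpt1) and -0.27 to 0.27 (Gcnt2). Tet3 ran from -0.21 to 0.17, Cd48, a multipotent progenitor marker, from -0.058 to 0.44 and Itgam from -1.17 to 0.0050.

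Over all genes, 2 rather than 5 were called higher with a mean of at least 50, with quantile normalization and without a variance trend. DESeq2 called 73 higher and 37 lower. With each library left out, 4 to 231 were called higher and 8 to 161 lower, the most without control 1; the cause was not tested. The replicate number as a block gave 3 higher genes and 0 of the marker genes. Deviations of same-numbered libraries from their group means had r = -0.07 over genes. This correlation cannot show whether same-numbered mice were paired, and the labels give them only a shared number. With 2 mice per group, the 95% intervals of 8 marker genes include 0.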
